A study of Mus musculus with 11 samples.

Results

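The PRDM family encodes zinc finger proteins that carry a PR domain, a relative of the SET domain found in histone methyltransferases. A few members methylate histones themselves, whereas most bind DNA through their zinc fingers and act with partner enzymes that modify chromatin. In early mouse development the family is best known for PRDM14, which sustains naïve pluripotency and germ cell fate, and for PRDM1, which specifies primordial germ cells. PRDM10, which also has a glutamine-rich transactivation domain, is the gene removed in the embryos described here.

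The 9 genes followed were *Prdm10*, *Prdm1*, *Prdm2*, *Prdm4*, *Prdm9*, *Prdm14*, *Prdm15*, *Prdm16* and *Mecom*, taken by symbol from 54146 genes in each table. A further 5 PRDM genes (*Prdm6*, *Prdm8*, *Prdm11*, *Prdm12* and *Prdm13*) were kept as a second list. The question was which paralogs are expressed at the 8-cell stage and whether any of them rises when *Prdm10* is lost.

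Single embryos were collected at E2.5 from intercrosses of C57BL/6 mice heterozygous for a *Prdm10* allele lacking exon 5 (Δ), and each was made into 1 Smart-seq2 library. The allele came from a EUCOMM knockout-first ES cell clone, after FLPe recombination and deletion of exon 5 by ACTB-Cre, which acts in all tissues. The 6 controls were *Prdm10* +/+ or Δ/+ and cannot be separated further, and the 5 mutants were *Prdm10* Δ/Δ. Batch 1 (16 PCR cycles) held controls 4 to 6 and mutants 4 and 5, and batch 2 (13 cycles) held controls 1 to 3 and mutants 1 to 3. No group received a treatment. The study assigned embryos to groups by qRT-PCR of *Prdm10* exon 5 in the same cDNA, so the level of *Prdm10* is not independent of the grouping.

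Summed expected counts per library ran from 3534735 to 8265840, so that 3 counts, the most that a count of 0 allows, stood for 0.363 to 0.849 CPM (counts scaled to the library total). Such floors cover counting error only. All 7 markers of the 8-cell stage were above 0 in at least 1 library and summed to 4780 to 6229 TPM (a level corrected for transcript length and put on a common library total) in controls and 5041 to 5870 TPM in mutants, almost all of it *Dppa3* (means of 5132 and 4973 TPM), while *Cdx2* stayed at or below 1.3 TPM. In the same list *Klf5* was called higher in mutants (means of 97.1 and 172 TPM, adjusted p = 1.07e-06, DESeq2), and *Pou5f1* (134 and 244 TPM, adjusted p = 0.123) and *Nanog* (30.4 and 15.2 TPM, adjusted p = 0.167) did not pass. The 4 markers of maternal oocyte RNA (*Gdf9*, *Bmp15*, *Zp3* and *Oosp1*) were each above 0 in all 11 libraries. They summed to 30.7 to 103 TPM in controls and 39.8 to 72.8 TPM in mutants. Of 6 cumulus and granulosa cell markers, *Foxl2*, *Has2* and *Ptx3* were at 0 in all 11 libraries, and the list summed to at most 0.47 TPM in controls and 7.83 TPM in mutants. The 3 oviduct markers summed to between 0 and 24.3 TPM in controls and between 0 and 31.9 TPM in mutants, with *Ovgp1*, an oviduct glycoprotein gene, giving nearly all of it. The 3 blood cell markers summed to between 0 and 10.9 TPM in controls and between 0 and 1.95 TPM in mutants.

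Because the groups rest on exon 5, the exon and its primers are shown first. The gene *Prdm10* (ENSMUSG00000042496.18; chromosome 9, 31280538 to 31381723, plus strand) is placed here in GRCm38. Exon 4 lies at chr9:31318512-31318571 and exon 5 at chr9:31325627-31325834, both coding sequence. Both exons are given 5′ to 3′ from the GENCODE transcripts, with the primer sites in capitals (the second site is the reverse complement of the reverse primer).
Exon 4: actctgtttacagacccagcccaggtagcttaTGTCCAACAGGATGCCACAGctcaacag
Exon 5: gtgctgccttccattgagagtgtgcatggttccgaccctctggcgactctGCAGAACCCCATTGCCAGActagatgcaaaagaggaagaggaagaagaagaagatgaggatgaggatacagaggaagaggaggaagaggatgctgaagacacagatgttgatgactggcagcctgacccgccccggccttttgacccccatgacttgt
Forward primer: TGTCCAACAGGATGCCACAG
Reverse primer: TCTGGCAATGGGGTTCTGC
The pair spans the junction of both exons and gives a product of 97 bases. Exon 5 has 208 bases, which is 69 codons and 1 base over. In the transcript Prdm10-205, where 98 codons precede exon 5 and the whole frame has 1172, joining exon 4 to the next exon left 40 codons in another frame before the first stop.

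The annotation holds 5 *Prdm10* transcripts, the same ones that the tables list. Exon 5 is whole in 3 of them, Prdm10-202 (1952 bases), Prdm10-203 (3064 bases, with a retained intron) and Prdm10-205 (3519 bases), and the primer pair matches these 3 in full. Prdm10-204, the longest at 6772 bases, starts exon 5 at a site 54 bases further in, which leaves 154 bases of the exon. Across its junction with exon 4 it still matches 18 of the 19 bases of the reverse primer site, so whether the assay read it was not tested. Prdm10-201 (3408 bases) has no exon 5 and no such site. The longest transcript also runs 3180 bases past the end of every other *Prdm10* transcript.

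*Prdm10* reads were still present in every mutant. Normalised read counts (expected counts divided by the DESeq2 size factor) were 120, 202, 159, 169 and 104 in mutants 1 to 5, and in controls ran from 124 over a median of 237 to 381. The groups overlapped, with 2 of 5 mutants below every control. By DESeq2 the count fell short of the threshold, with a log2 fold change of -0.66 (SE 0.26, 95% interval -1.16 to -0.16, adjusted p = 0.215).

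Per length, the same gene separated the groups completely. The TPM of *Prdm10* was 4.88, 7.67, 7.29, 8.16 and 5.32 in mutants 1 to 5, while controls ran from 11.1 over a median of 15.5 to 24.8. All 5 mutants lay below every control, which 0.582% of 10489 genes with a mean count above 10 also showed. The mean was 16.5 ± 4.62 TPM in the controls (SD, n = 6) against 6.66 ± 1.47 TPM in the mutants (SD, n = 5) (exact permutation test over all splits of the embryos, two-sided, p = 0.00433, the smallest it can give). Since exon 5 of this gene set the groups, the test is a check of the labels more than a separate finding. With labels exchanged only within batches the exact permutation p was 0.01. Each batch alone had the same direction, with 14.6 against 6.74 TPM in batch 1 and 18.4 against 6.61 TPM in batch 2, but too few embryos to pass the threshold (exact permutation p = 0.2 and 0.1, the smallest possible).

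What separated the count from the TPM was the effective length, the transcript length over which RSEM spreads the reads. It was 4988, 5051, 4348, 4899 and 4443 bases in mutants 1 to 5, and in controls ran from 2565 over a median of 3102 to 3357 bases. No control reached the shortest mutant. Every mutant exceeded every control in 0.21% of 10487 genes, 22 in number, and 6 of these, *Prdm10* included, had a ratio of mutant to control means at least as large as that of *Prdm10* (1.58). The other 5 were *Zmynd11*, *1500015A07Rik*, *Senp7*, *Myo5b* and *Socs4*, named after their values were seen. The test of the length gave p = 0.00433 (exact permutation test, two-sided), and p = 0.01 with labels exchanged within batches. This test is not independent of the grouping either, since the qRT-PCR primers match 3 of the shorter transcripts in full, and the longest one with 1 base of the reverse site unmatched.

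**Figure D1:**
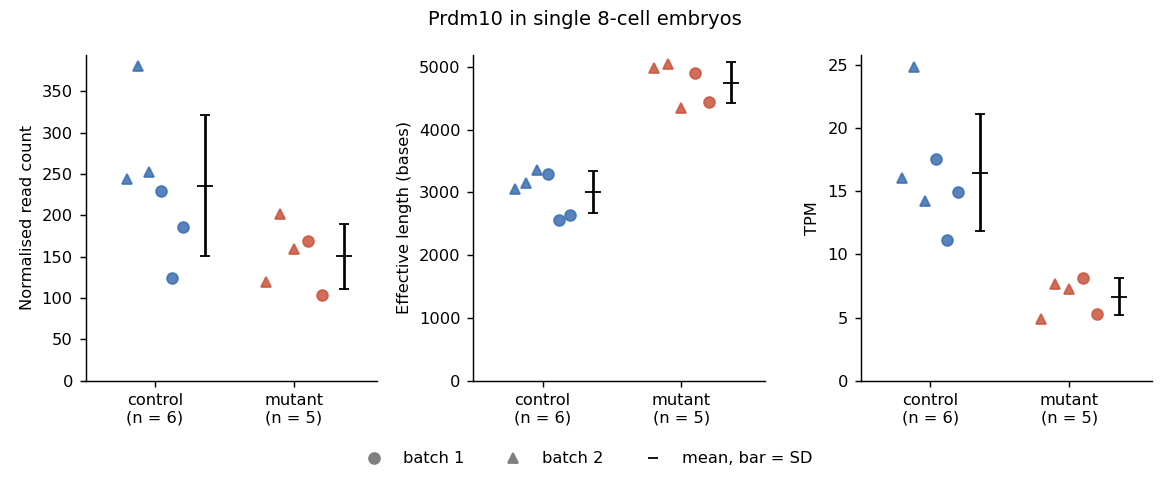
*Prdm10* in each embryo as normalised read count (left), effective length in bases (middle) and TPM (right), with controls in blue, mutants in red, circles for batch 1, triangles for batch 2, and black bars for the mean and SD. The counts of the groups overlap, whereas all 5 mutants lie above every control in effective length (4348 bases or more against at most 3357) and below every control in TPM (8.16 or less against at least 11.1).

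The mean transcript length that RSEM reports limits how much of *Prdm10* it can have assigned to the longest transcript. If the remainder were all the next longest transcript (3519 bases) or all the shortest (1952 bases), Prdm10-204 would make up between 47.4% and 64.5% of *Prdm10* molecules in mutant 1, between 49.4% and 65.8% in mutant 2, between 27.7% and 51.2% in mutant 3, between 44.7% and 62.7% in mutant 4 and between 30.7% and 53.2% in mutant 5. In controls the range began at 0 in all 6 embryos, and its upper end lay between 14.3% and 30.7%. The whole range of mutants 1, 2 and 4 lay above the range of every control, while those of mutants 3 and 5 overlapped that of the highest control. These are shares as RSEM assigned the reads. Prdm10-204 holds 154 bases of exon 5, and Prdm10-202 and Prdm10-205, used for the remainder, hold all 208. The Δ allele lacks exon 5, so mutants cannot make these transcripts as annotated. Their shares in mutants therefore cannot be read as molecules of Prdm10-204. None of the 5 annotated transcripts joins exon 4 directly to exon 6, as an RNA of the Δ allele would, and Prdm10-201, which skips exon 5, keeps 73 further bases before exon 6.

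**Figure D2:**
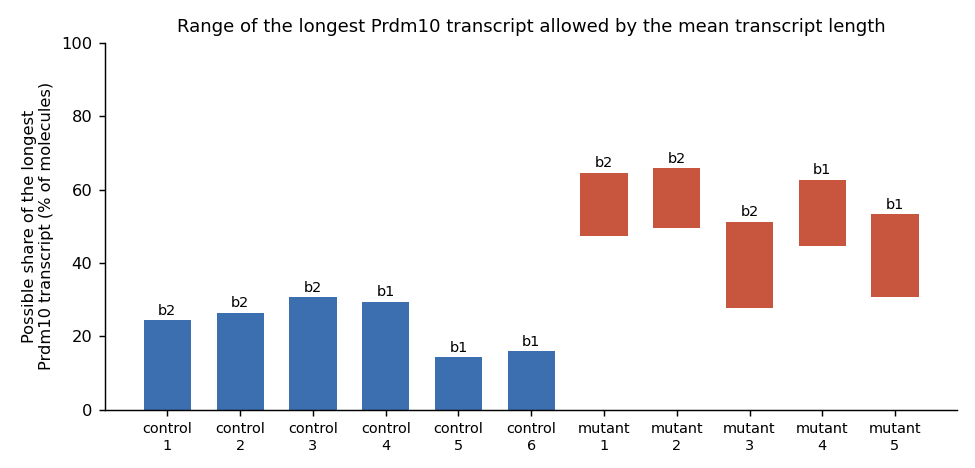
Range of the share of *Prdm10* molecules, in percent, that the longest transcript can take in each embryo given its mean transcript length. Bars run from the lowest to the highest possible share, controls in blue and mutants in red, with b1 and b2 for the batch, and the mutant bars begin at 27.7% or more while the control bars begin at 0 and end at 30.7% or less.

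Among the paralogs, *Prdm4* had the highest level. *Prdm4* (chromosome 10, 85891966 to 85917142, minus strand) encodes a factor known to recruit the arginine methyltransferase PRMT5 in neural stem cells. Its TPM ran from 8.81 over a median of 14.1 to 21.0 in controls and was 9.26, 9.17, 6.03, 16.7 and 12.9 in mutants 1 to 5. The groups overlapped, with 1 mutant below every control and 3 controls above every mutant. The log2 fold change of the count was -0.44 (SE 0.26, 95% interval -0.95 to 0.08, adjusted p = 0.544, DESeq2), with the upper end at a 1.06-fold higher level in mutants. Without control 1 the log2 fold change was -0.24 and the upper end 1.19-fold, and in batch 1 alone the upper end was 1.40-fold.

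*Prdm14* (chromosome 1, 13113457 to 13127163, minus strand), the pluripotency and germ cell regulator, had a negative estimate in both batches. Controls of batch 1 had 11.8, 8.12 and 10.8 TPM, and mutants 4 and 5 had 0.68 and 4.36 TPM. Controls of batch 2 had 4.02, 2.87 and 4.28 TPM, and mutants 1 to 3 had 4.25, 2.53 and 1.41 TPM. In batch 2 the groups overlapped, and batch 1 held too few embryos, 3 controls and 2 mutants, to read a separation from. The controls themselves stood higher in batch 1 (10.2 ± 1.90 TPM, SD, n = 3) than in batch 2 (3.72 ± 0.750 TPM, SD, n = 3).

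Over both batches the log2 fold change of *Prdm14* was -1.12 (SE 0.47, 95% interval -2.05 to -0.20), which did not pass the threshold (adjusted p = 0.279, DESeq2). It was -2.01 in batch 1 alone (adjusted p = 0.139) and -0.46 in batch 2 alone (adjusted p = 0.998). The difference between the batches was not significant either (interaction, log2 scale, batch 2 minus batch 1, 1.55, 95% interval -0.22 to 3.32, adjusted p = 1.00). Without mutant 5 this difference was 3.48, and without mutant 4 it was 0.75, each with only 1 mutant left in batch 1. *Prdm14* has a single annotated transcript in the tables, so its effective length was 2490 bases in every embryo. The upper end of its interval lay at 0.870-fold of the control level over all embryos, but at 1.04-fold without mutant 4, where the log2 fold change was -0.71, and at 1.77-fold in batch 2 alone.

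*Prdm2* (chromosome 4, 143107391 to 143212995, minus strand), known as RIZ1, a tumour suppressor with histone H3 lysine methyltransferase activity, differed mainly between batches. In batch 1 controls had 3.77, 1.16 and 1.51 TPM and mutants 2.21 and 2.29 TPM. In batch 2 controls had 8.69, 5.65 and 15.3 TPM and mutants 5.86, 6.25 and 3.24 TPM. In both batches the mutants lay within, or in part below, the range of the controls. The log2 fold change was -0.07 (SE 0.33, 95% interval -0.72 to 0.57, adjusted p = 0.970, DESeq2), with the upper end at a 1.49-fold higher level. The sign was positive, at 0.32, in batch 1 alone.

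*Prdm15* (chromosome 16, 97791467 to 97851850, minus strand), a regulator of naïve pluripotency, was low in all embryos. Its TPM ran from 0.4 over a median of 1.44 to 3.99 in controls and was 0.49, 1.64, 0.41, 2.85 and 0.86 in mutants 1 to 5. The groups overlapped. The sign of its change depended on the scale, with a log2 fold change of 0.39 on counts (SE 0.60, 95% interval -0.78 to 1.55, adjusted p = 0.890, DESeq2) and of -0.45 with an offset for effective length (adjusted p = 0.861). Its effective length was 6272, 6170 and 6120 bases in mutants 1 to 3, all of batch 2, above every control, whose highest was 4732 bases. In mutants 4 and 5, of batch 1, it was 4425 and 3555 bases, which overlapped the controls. These lengths rest on 13 to 69 expected counts per mutant, and how many other genes had this pattern was not counted. The interval on counts reached a 2.94-fold higher level, so a rise of up to that size was not excluded. The upper end was 8.85-fold in batch 1 alone, 3.83-fold without control 2 and 1.90-fold without mutant 4.

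*Prdm9* (chromosome 17, 15543079 to 15564354, minus strand), the methyltransferase that places meiotic recombination hotspots, had a mean normalised count of 9.42 and so was not tested for a call. Its expected counts were 1, 3, 10, 13 and 30 in mutants 1 to 5 and ran from 2 over a median of 5.5 to 20 in controls. In batch 1 both mutants were above every control, but 3 controls and 2 mutants allow only 10 splits, so this says little. The share of all genes that did the same was not counted. In batch 2 all 3 mutants lay within or below the range of the controls. The log2 fold change was 1.97 in batch 1 alone and -1.24 in batch 2 alone, and the difference between them did not pass the threshold (unadjusted p = 0.0654, adjusted p = 1.00, DESeq2 interaction). Over both batches it was 0.30, with an interval that reached a 4.24-fold higher level, and the upper end was 7.13-fold without control 3 and 17.97-fold in batch 1 alone.

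The other 3 members were at or near 0. *Prdm1* (chromosome 10, 44437177 to 44528501, minus strand), the germ cell and plasma cell repressor, had 11 counts in control 1, 1 count in control 2 and 0 in the other 9 embryos, all 5 mutants included. *Prdm16* (chromosome 4, 154316125 to 154636873, minus strand), best known from brown fat and neural stem cells, reached 15 counts in control 3 and 20 in mutant 3 and had at most 8 counts elsewhere. *Mecom* (chromosome 3, 29951296 to 30548008, minus strand), which encodes EVI1 and regulates blood stem cells, had 9 counts in control 1, 22 in mutant 3, 3 in mutant 1, 1 in mutant 4 and 0 in the other 7 embryos. At these low means DESeq2's own filter gave none of these 3 an adjusted p. Mutant 3 and control 1, which held the highest *Mecom*, also had the highest oviduct marker sums (31.9 and 24.3 TPM), and control 1, with the highest *Prdm1*, had the highest blood marker sum (10.9 TPM). The part of these markers in the values was not tested.

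**Figure D3:**
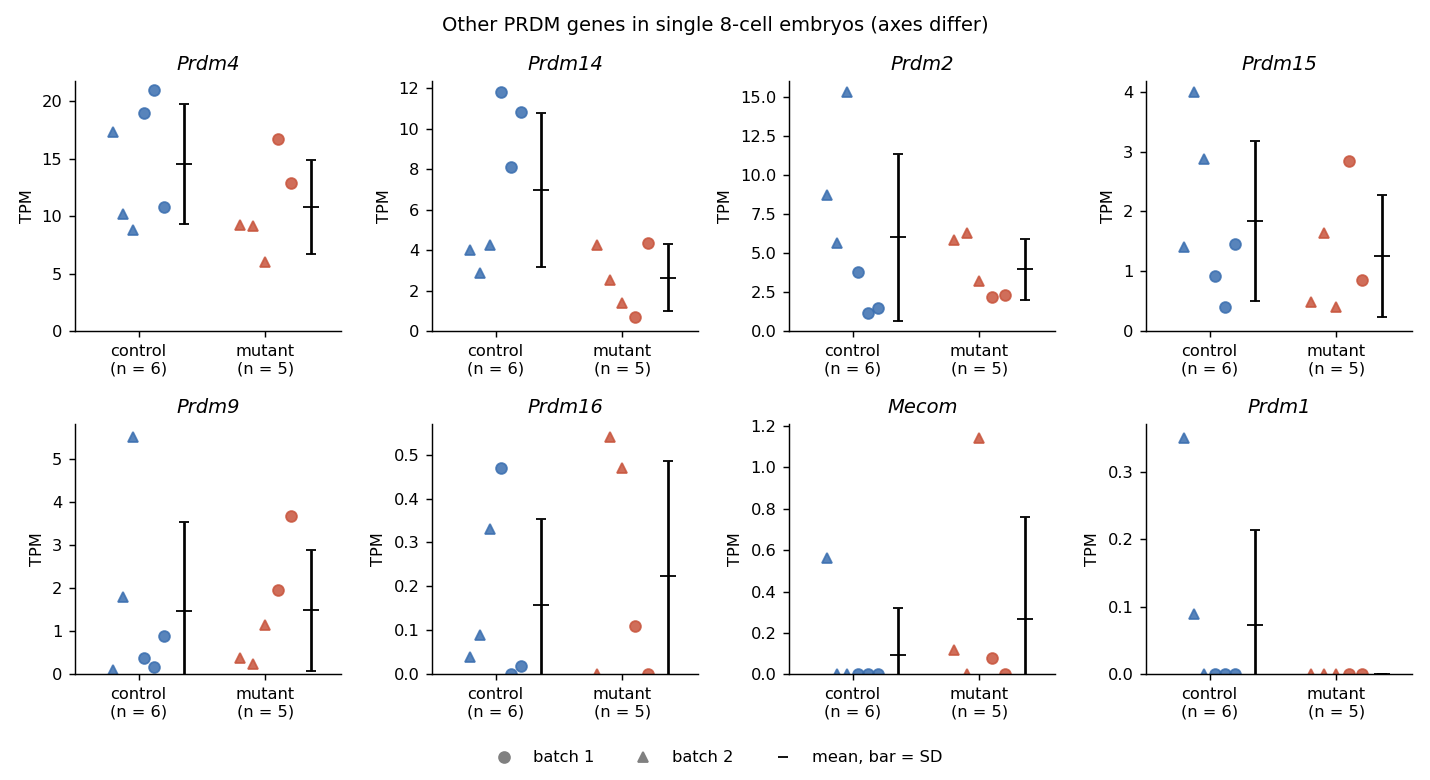
TPM of the 8 members other than *Prdm10* in each embryo, with controls in blue, mutants in red, circles for batch 1, triangles for batch 2, and black bars for the mean and SD; the vertical axes differ between panels. The groups overlap for every gene, and *Prdm14* in controls falls into 3 embryos of batch 1 at 8.12 TPM or more and 3 of batch 2 at 4.28 TPM or less.

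None of the 5 members with a mean count above 10 (*Prdm10*, *Prdm2*, *Prdm4*, *Prdm14* and *Prdm15*) passed an adjusted p of 0.05, against 1.45% of 10448 genes, 151 in number. At an unadjusted p under 0.05 there were 2, *Prdm10* and *Prdm14*, both with lower estimates in mutants, against 11.9% of all genes tested. The edgeR quasi-likelihood test called none of these 5 (adjusted p = 0.403 for *Prdm10* and 0.502 for *Prdm14*, against 0.334% of genes called), and neither did limma on log2(TPM + 1), where *Prdm10* came to 0.0979 against 0.21% of genes called. With an effective-length offset, *Prdm10* alone was called, at a log2 fold change of -1.29 (SE 0.24, adjusted p = 2.95e-05), against 1.4% of genes. No member was called higher in mutants, against 0.565% of all genes, and no member had a called interaction between batch and group, against 0.0382%. The median log2 fold change was -0.44 over the 5 members tested and -0.0012 over all genes tested. These counts and this median include *Prdm10*, whose exon 5 set the groups. Apart from it, the estimates were -1.12 for *Prdm14*, -0.44 for *Prdm4*, -0.07 for *Prdm2* and 0.39 for *Prdm15*.

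**Figure D4:**
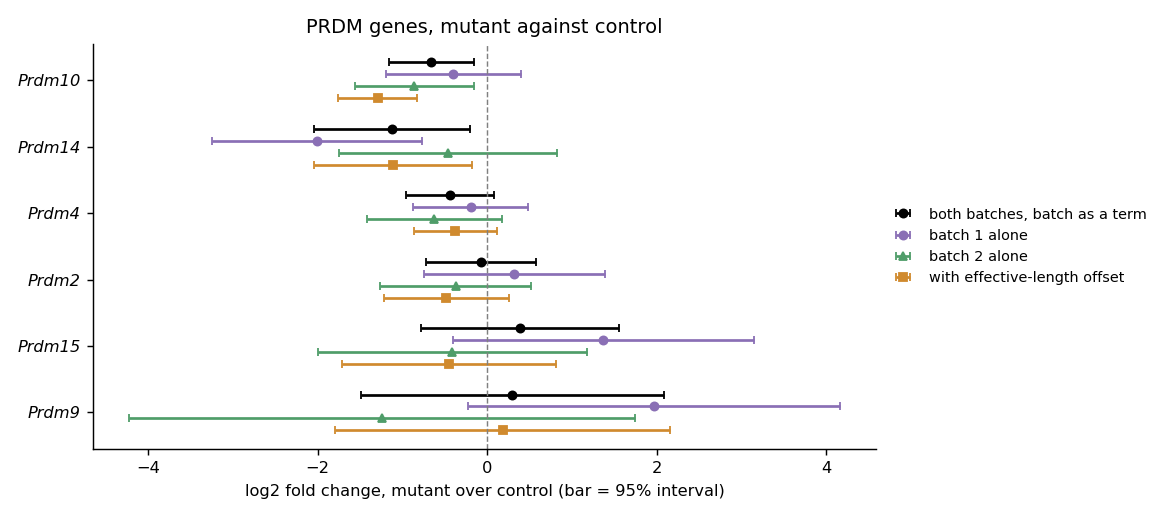
Log2 fold change of mutants over controls for 6 PRDM genes with 95% intervals, in both batches together (black), in batch 1 (purple) or batch 2 (green) alone, and with an effective-length offset (orange). Only the offset for *Prdm10* gives a call (-1.29), and *Prdm2*, *Prdm15* and *Prdm9* lie on opposite sides of 0 in the 2 batches (0.32 and -0.37, 1.37 and -0.41, and 1.97 and -1.24).

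In controls the order of mean levels per length was *Prdm10* (16.5 TPM), *Prdm4* (14.5 TPM), *Prdm14* (6.98 TPM), *Prdm2* (6.01 TPM), *Prdm15* (1.85 TPM), *Prdm9* (1.48 TPM), *Prdm16* (0.158 TPM), *Mecom* (0.0933 TPM) and *Prdm1* (0.0733 TPM). Every pair of neighbours in this order overlapped in range. *Prdm10* exceeded *Prdm4* in 3 of 6 controls and *Prdm14* exceeded *Prdm2* in 3 of 6, so neither pair can be ordered, whereas *Prdm4* exceeded *Prdm14* in 5 of 6 and *Prdm2* exceeded *Prdm15* in 6 of 6. The batches disagreed over the first place, which *Prdm4* held in controls of batch 1 (16.9 against 14.6 TPM for *Prdm10*) and *Prdm10* in controls of batch 2 (18.4 against 12.1 TPM). They also disagreed over the third place, which *Prdm14* held in controls of batch 1 (10.2 against 2.15 TPM for *Prdm2*) and *Prdm2* in controls of batch 2 (9.87 against 3.72 TPM). Set against 10489 genes with a mean count above 10, the control mean of *Prdm10* was above 56.5% of them, that of *Prdm4* above 53.9% and that of *Prdm15* above 12.1%. In mutants *Prdm4* came first at 10.8 ± 4.11 TPM (SD, n = 5), ahead of *Prdm10*.

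The summed TPM of these 14 PRDM genes was lower in every mutant than in any control. *Prdm10*, whose exon 5 set the groups, is part of this sum, so the separation is not independent of the grouping. Of 10489 single genes, 0.582% had every mutant below every control, and sums over other genes were not compared. It was 25.2, 28.1, 21.1, 32.8 and 29.4 TPM in mutants 1 to 5 and ran from 40.5 to 54.5 TPM in controls. *Prdm10* made up 34.3 ± 8.30% of the sum in the controls (SD, n = 6) against 24.8 ± 6.62% in the mutants (SD, n = 5). Without *Prdm10* the sum was still lower in every mutant, at 20.4, 20.4, 13.9, 24.6 and 24.1 TPM against 25.5 to 37.1 TPM in controls, although the nearest pair, mutant 4 and control 2, differed by little. On normalised counts the groups overlapped. The sum there ran from 403 to 608 in mutants and from 579 to 818 in controls, with 4 of 5 mutants below every control, and without *Prdm10* from 244 to 419 and from 393 to 548, with 2 of 5 below. These sums are a description and were not tested. In bulk RNA of a whole embryo, a smaller share of cells with RNA of a gene and less of that RNA per cell cannot be told apart. TPM is a share of the RNA, not an amount.

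**Figure D5:**
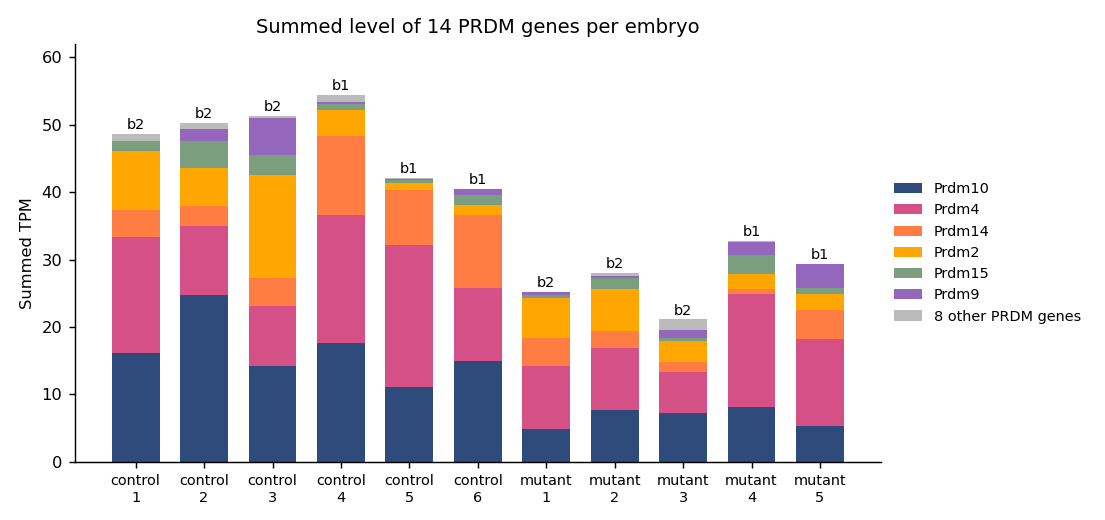
Summed TPM of 14 PRDM genes in each embryo, stacked by gene, with b1 and b2 for the batch. The 6 control bars reach 40.5 to 54.5 TPM and the 5 mutant bars 21.1 to 32.8 TPM.

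Of the 5 PRDM genes of the second list, none had a mean count above 10. *Prdm8* had 0 counts in all 11 embryos. *Prdm6* had 6 counts in control 4 and 1 in control 1, *Prdm12* had 4 counts in control 2, and *Prdm11* and *Prdm13* had at most 1 count in any embryo. Genes that overlap a member on the genome could add reads, since Smart-seq2 libraries do not keep strand. The long noncoding RNA gene *4930517E14Rik*, opposite to *Prdm10*, reached at most 6.1 counts, the pseudogene *Gm13039* within *Prdm2* at most 10.04 counts, and *Gm18564*, opposite to *Prdm9*, at most 3 counts. Of the genes overlapping *Mecom*, *Gm38066* and *Gm37024* reached at most 3 counts each, in mutants alone, and the antisense gene *Mecomos* had 0.

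PRDM proteins act with other chromatin factors, and 20 such partner genes were examined, of which 18 had a mean count above 10. None passed the threshold, against 1.45% of all genes, 4 of 18 had an unadjusted p under 0.05 (against 11.9% of all genes tested), and 9 of 18 had a negative log2 fold change (against 5241 of 10448 genes), with a median of 0.02 against -0.0012 over all genes tested. The lowest p among negative changes was that of *Hdac2*, a histone deacetylase, at 569 ± 286 normalised counts in the controls (SD, n = 6) against 267 ± 88.7 in the mutants (SD, n = 5) (log2 fold change -0.89, SE 0.27, adjusted p = 0.0611, DESeq2). Next came *Cbfa2t2*, a corepressor that binds PRDM14 (-0.44, SE 0.25, adjusted p = 0.501). Among positive changes the lowest were *Tle3*, a Groucho corepressor, at 48.3 ± 22.6 (SD, n = 6) against 149 ± 125 counts (SD, n = 5) (1.38, SE 0.45, adjusted p = 0.0929), and *Prmt5*, the methyltransferase that PRDM4 recruits (0.48, SE 0.19, adjusted p = 0.229). *Tle3* passed with the effective-length offset (adjusted p = 0.0228). *Hdac2* passed in batch 1 alone (adjusted p = 0.00148) and without any one of control 1, control 3 or mutant 1 (adjusted p from 0.00123 to 0.0383).

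For the 3 members with a mean count above 100, the 3 genes with the most similar levels across the 11 embryos, after removing batch means, were listed out of 5537. For *Prdm10* they were *2410006H16Rik* (Pearson r = 0.914), *Bccip* (r = 0.906) and *Prdx2* (r = 0.905). In all 3 of these genes every mutant lay below every control, as for *Prdm10*, so the points share the grouping. *2410006H16Rik* averaged 130 ± 26.7 TPM in the controls (SD, n = 6) against 20.1 ± 8.32 TPM in the mutants (SD, n = 5). For *Prdm4* they were *Nolc1* (r = 0.928), *Sltm* (r = 0.924) and *Lin54* (r = 0.911), and for *Prdm2* *1810009A15Rik* (r = 0.927), *Rbm12* (r = 0.904) and *Mbtps2* (r = 0.868). None of these 6 genes changed past the threshold (adjusted p of at least 0.340). The correlations are over 11 embryos, are the highest of many, and describe likeness of pattern alone.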

How the data were processed

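RNA-seq of 11 single embryos was used, with groups, genotypes and batches from the labels. According to the study's methods and the labels, the authors mapped reads to GRCm38.p6 with STAR 2.6.0c and quantified genes with RSEM against GENCODE. The deposited tables hold, per embryo, expected counts (estimated counts that need not be whole), TPM, and the mean and effective transcript length in bases. The authors' own comparison table (fold changes and p-values) was not used. Smart-seq2 has no molecular identifiers, so PCR copies count separately.

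Expected counts were rounded and fitted over all genes with DESeq2 1.42.0 (Wald test, batch and group as terms, Benjamini-Hochberg adjustment) in R 4.3.3. A call needed an adjusted p under 0.05 and a mean normalised count above 10. Single values were compared by exact permutation over embryos, two-sided by doubling the smaller tail. Alternatives included edgeR 4.0.16, limma 3.58.1 on log2(TPM + 1) or log2(TPM + 0.1), no batch term, each batch alone, an effective-length offset and each embryo left out. The tests were checked on simulated data, where DESeq2 made more false calls than its threshold allows. Symbols, positions and exon sequences came from GENCODE transcripts of the same build (54079 of 54146 gene IDs matched), and primers from the study's oligo list. Named genes were the 9 members, 5 further PRDM genes (some planned results are not reported here), overlapping genes, the partner genes with the 2 lowest p in each direction, and the 3 most alike genes per member. Cell type markers, *Eed* and 5 genes of long effective length were named besides, *Eed* and those 5 after their values were seen. The members and lists were chosen with earlier results of these data known. Nothing in the labels says whether embryos of a group shared a litter, so p-values measure the spread between these embryos. No pair of the 11 libraries agreed within sampling noise.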

Additional observations from a re-analysis of the deposited data

Results flagged for a closer look

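Values were flagged where 1 embryo stood far from the rest of its group, judged by the gap to its nearest neighbour over the group's whole range, a rule that chance alone meets in about 1 of 20 groups of evenly spread values. It flagged 5 of 25 groups here, and for *Mecom* and *Prdm1*, at 0 in most embryos, a single embryo with reads is enough to meet it. *Prdm9* had 5.51 TPM in control replicate 3 against 1.81 TPM in the next control. *Mecom* had 0.56 TPM in control replicate 1 against 0 in the other 5 controls, and 1.14 TPM in mutant replicate 3 against 0.12 TPM in the next mutant. *Prdm1* had 0.35 TPM in control replicate 1 against 0.09 TPM in the next. The effective length of *Prdm4* was 3063 bases in mutant replicate 3 against 3690 bases in the nearest mutant.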

How the results depend on the processing

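No paired analysis was possible because the replicate numbers were given in order within each group and pair no embryos. Counts of called members stayed at 0 under all alternatives except the effective-length offset, which called 1, *Prdm10*, at a log2 fold change of -1.29. In batch 1 and batch 2 alone, the *Prdm10* effective length differed by 1835 and 1609 bases and its TPM by -7.82 and -11.8, where too few embryos remained to pass. Without any 1 embryo, these ran from 1645 to 1834 bases and from -10.9 to -8.13 TPM, and the *Prdm10* log2 fold change from -0.84 to -0.52. The count of partner genes called was 1 with at least 10 counts in 5 libraries (*Hdac2*), 1 in batch 1 alone (*Hdac2*), 1 with the offset (*Tle3*), and 0 to 2 with 1 embryo left out: *Hdac2* without control 1, control 3 or mutant 1, *Tle3* without control 4, and *Prmt5* and *Eed* without control 2. Signs reversed for *Prdm2* in batch 1 alone (0.32), for *Prdm9* in batch 2 alone (-1.24), and for *Prdm15* with limma on log2(TPM + 1) (-0.34) or log2(TPM + 0.1) (-0.57), in batch 2 alone (-0.41) and with the offset (-0.45). With 1 embryo left out they ran from -0.19 to 0.15, from -0.28 to 0.98 and from -0.26 to 0.71, below 0 for *Prdm15* without mutant 4, below 0 for *Prdm9* without control 5 or mutant 5, and above 0 for *Prdm2* without control 3, control 4 or mutant 3. Of the 9 places in the order of levels, 1 was the same in mutants, 5 in controls of batch 1, 5 in controls of batch 2, and 5 to 9 with 1 control left out. The cause of these changes was not tested. Without any 1 embryo the log2 fold change ran from -1.44 to -0.71 for *Prdm14*, nearest to 0 without mutant 4, and from -0.54 to -0.24 for *Prdm4*, nearest to 0 without control 1. *Prdm1*, *Prdm16* and *Mecom*, with 0 to 22 counts per embryo, were left without an adjusted p by the filter on mean counts, and none of them was called without it.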
